A study of Sus scrofa with 20 samples.

Results

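The endothelial sorts of the pig liver are 4 RNA-seq libraries, and they were set against 3 libraries of other sorts from the same tissue. The members were chosen by their labels: the CD31+ libraries S16 and S21 and the CD146+ libraries S17 and S22 on the endothelial side, and the CD45+ libraries S18 and S23 and the CD45-/EpCAM+ library S19 on the other. These 7 libraries are part of 20 in the series, whose other 13 were 5 libraries of biliary tree stem cells (pBTSCs) and 8 of other liver fractions. No treatment, allele or time was given for any of the 7 libraries, so the labels separate the groups only by the antigen they name. The study's methods describe dissociation of neonatal pig organs and selection of cells by surface antigens, and they do not state the piglet of each liver library or the purity of a sort. The titles fall into an unbroken run S16 to S19 and another run S21 to S23, separated by a pBTSC library, S20, and the labels do not say what a run stands for. Each label appears at most once in a run, with 2 endothelial and 2 other libraries in S16 to S19 and 2 and 1 in S21 to S23. No source says that libraries of a label are separate animals, so each p-value measures only the spread between these libraries.

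CD31 (PECAM1) is an adhesion molecule of endothelial junctions that platelets and some leukocytes also carry, and CD146 (MCAM) is an adhesion molecule of endothelium and of the pericytes and smooth muscle around vessels. CD45 (PTPRC) is a phosphatase found on nucleated blood cells, and EpCAM is an adhesion molecule of epithelium that in the liver marks bile ducts and progenitors. Hepatic sinusoids are lined by a scavenger endothelium rich in the stabilin receptors STAB1 and STAB2, while arteries and veins have a continuous endothelium wrapped in contractile cells. A sort for CD31 or CD146 would thus be read through junction and receptor genes, a CD45 sort through leukocyte genes, and hepatocyte genes such as ALB through the parenchyma that surrounds all of them.

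The values are normalized counts, which are reads per gene divided by a factor for each library. The steps between low values place 6 of the 7 libraries between 31300000 and 50200000 reads and the CD146+ library S22 at about 455000. A single read in S22 was worth 52.2 normalized counts, and 1725 of the 14324 genes tested were at 0 in it. Results that use S22 are therefore given with and without it. The hepatocyte list, 12 genes led by ALB, held 9.29% to 11.9% of the total in endothelial sorts and 9.98% to 11.3% in the other sorts. ALB alone held 6.43% in CD31+ S16, 6.21% in CD146+ S17, 7.60% in CD45+ S18, 7.24% in CD45-/EpCAM+ S19, 7.08% in CD31+ S21, 7.55% in CD146+ S22 and 6.27% in CD45+ S23. Every sort thus carried hepatocyte RNA at a similar level, and its part in the results below was not tested. In bulk libraries such as these, fewer cells of a type and less RNA per cell cannot be told apart.

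The genes of the sort antigens were examined first, since they check the labels. PECAM1 stood at 25291 normalized counts in CD31+ S16, 28778 in CD146+ S17, 26682 in CD45+ S18 and 25978 in CD45-/EpCAM+ S19. In the other run it stood at 20102 in CD31+ S21, 20655 in CD146+ S22 and 19884 in CD45+ S23. The CD31+ library was the lowest of its run in S16 to S19 and the middle of 3 in S21 to S23, so the gene of the CD31 antigen was not highest in the sort named for it in either run. The endothelial sorts averaged 23707 ± 4104 (SD, n = 4) and the other sorts 24181 ± 3738 (SD, n = 3).

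MCAM was highest in the CD146+ library of each run. It stood at 4751 in CD31+ S16, 5226 in CD146+ S17, 4594 in CD45+ S18, 4615 in CD45-/EpCAM+ S19, 3672 in CD31+ S21, 4615 in CD146+ S22 and 3803 in CD45+ S23. The CD146+ library lay 1.12 times the mean of the others in S16 to S19 and 1.23 times in S21 to S23. The 95% counting interval of MCAM in S22, which rests on about 88.5 reads, runs from 3703 to 5682 and holds the CD45+ value of the same run.

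PTPRC did not mark the CD45+ sort. It stood at 1247 in CD31+ S16, 1349 in CD146+ S17, 1227 in CD45+ S18, 1364 in CD45-/EpCAM+ S19, 1752 in CD31+ S21, 2102 in CD146+ S22 and 1777 in CD45+ S23. The CD45+ library was thus the lowest of S16 to S19, and the CD45-/EpCAM+ library, which the label describes as lacking CD45, was the highest there. EPCAM was highest in the CD45-/EpCAM+ library S19, at 1241, against 1155 in S16, 1052 in S17, 1198 in S18, 1161 in S21, 1032 in S22 and 1175 in S23. The endothelial sorts were all below the other sorts for EPCAM, by 0.13 on the log2 scale.

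None of the 4 antigen genes differed between endothelial and other sorts by a two-sided exact permutation test, in which 4 against 3 libraries cannot give a p below 0.0571. EPCAM gave that smallest p (exact permutation p = 0.0571, adjusted over the 4 genes 0.229). The other genes gave exact permutation p values of 0.971 for PECAM1, 0.743 for MCAM and 0.629 for PTPRC. The sign for PECAM1 depended on whether the runs were pooled. Its endothelial minus other difference was -0.03 (log2) over the 7 libraries and 0.04 within S16 to S19 and within S21 to S23 alike. MCAM had a log2 difference of 0.07 with all 7 and 0.11 within S16 to S19 and within S21 to S23 alike. It fell to -0.00 without CD146+ S17 and -0.02 without CD45+ S23. PTPRC moved from 0.13 to -0.00 without S22.

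**Figure D1:**
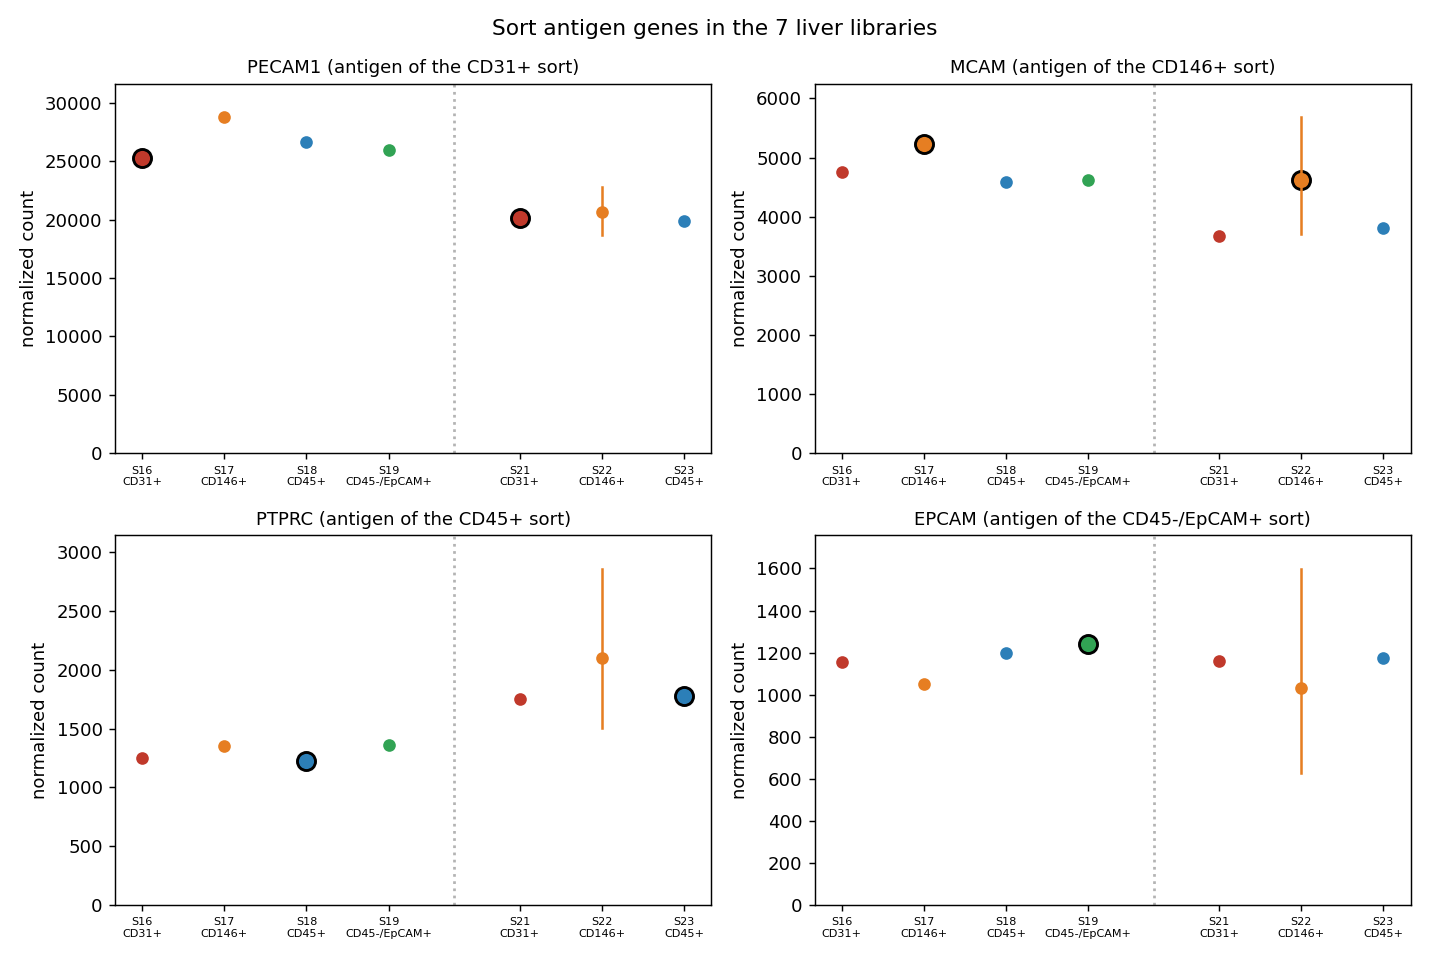
Normalized counts of the 4 sort antigen genes in each of the 7 liver libraries, coloured by label, with the library sorted for that antigen ringed in black and a dotted line between the runs. The bar on S22 is its 95% Poisson counting interval. PECAM1 in the CD31+ libraries (25291 and 20102) lies inside or below the range of the other sorts of the same run.

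Among the other libraries of the series, PECAM1 ran from 28048 to 36576 in the 5 pBTSC libraries and from 4803 to 16311 in the 8 other liver libraries. The 7 libraries considered here, at 19884 to 28778, lay between those ranges whatever antigen their label names, apart from the overlap of S17 with the lowest pBTSC values.

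Over all genes, no difference between the endothelial and the other sorts passed the test. No gene was called of 14324 tested (0.0%) by limma at an adjusted p under 0.05 and a change of more than 2-fold, and 6 genes had an unadjusted p under 0.05. Without S22 there were again 0 calls, with 55 genes at an unadjusted p under 0.05, and with S22 left out and the run as a block there were 0 calls and 232 such genes. For the genes with a mean of at least 500 normalized counts, the 95% interval of the difference lay within 2-fold in either direction for 96.4% of 7111 genes with all libraries. It did so for all 7111 without S22 and with the run as a block, where its median half-width was 0.13 on the log2 scale. A difference of more than 2-fold between the sorts is thus outside the interval for each of these genes in that fit, on the assumption of a common difference in the runs.

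Pairs of libraries show the same closeness. Within S16 to S19, where 4 different antigens are named, Pearson's r across tested genes ran from 0.994 to 0.996 in the 6 pairs, with genes not being independent replicates. The median gene differed by 0.06 to 0.09 (log2) between libraries of that run. In the widest case, the highest of the 4 libraries was more than 1.5 times the lowest for only 11 of 7111 genes, and more than 2 times for 1. That gene is 7SK, a small nuclear RNA without a poly(A) tail that restrains transcription elongation, at 917 in S16, 544 in S17, 1062 in S18 and 429 in S19. It was named after its values were seen. Pairs of libraries from different runs differed by a median of 0.12 to 0.17 (log2) without S22. Libraries of a run still differed by more than counting noise, with a median squared difference 2.89 to 4.33 times the counting expectation within S16 to S19. No pair was counted as 1 library.

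The endothelial libraries did not overlap with the other sorts for 97 genes above (0.677%) and 120 below (0.838%) of those tested. By the rule for named genes, the 10 in each direction with the smallest p without S22 were taken, and none is a call. Those above ran from 0.16 to 0.32 (log2). TMEM50B, a small membrane protein of the endoplasmic reticulum, is an example, at 903, 947, 956 and 1118 in the endothelial sorts and 784, 879 and 800 in the others. SLC25A29, a mitochondrial carrier of basic amino acids, stood at 346, 323, 365 and 323 against 289, 288 and 280. Those below ran from -0.12 to -0.54. KAT7, a histone acetyltransferase, stood at 865, 874, 822 and 830 against 921, 919 and 922. The adjusted limma p was 0.996 for each of the 20 genes. None of the 20 is a listed marker of endothelium.

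The endothelial lists were described by their counts and medians. Of 21 tested general endothelial genes, 0 were called, and 4 had a value above 0 in the endothelial minus other difference. Their median difference was -0.05 (log2), against -0.02 over all genes tested, and 0.04 against 0.00 without S22. Without S22, 20 of the 21 were above 0, against 7373 of the 14300 genes tested in that fit. With all libraries, 6208 of 14324 genes were above 0. The endothelial and other sides are split unevenly over the runs, so these differences also carry part of any run difference. With all libraries and the run as a block, 11 of the 21 were above 0, with a median of 0.002 (log2). Over all genes tested in that fit, 5977 were above 0, with a median of -0.02. CDH5, the cadherin of endothelial junctions, stood at 23137 in S16, 24843 in S17, 22459 in S18, 22978 in S19, 17232 in S21, 15414 in S22 and 17865 in S23. The libraries of each run lay close together, and the order of the sorts turned between the runs. KDR, the main VEGF receptor, stood at 20803, 20516, 18988 and 20590 in S16 to S19 and at 18642, 16118 and 19382 in S21 to S23. PLVAP, a protein of endothelial fenestrae, stood at 13922, 14274, 12952 and 14243, then at 19961, 16480 and 19125.

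Sinusoidal genes were abundant in all sorts. Of 16 tested, 0 were called and the median difference was -0.01 (log2) with all libraries and 0.06 without S22. STAB2, a hyaluronan scavenger receptor, stood at 24985 in S16, 23083 in S17, 20751 in S18, 22102 in S19, 39589 in S21, 27712 in S22 and 42272 in S23. The endothelial libraries were above the others in S16 to S19 and below the CD45+ library in S21 to S23. STAB1 and CLEC4G, a lectin of sinusoidal endothelium, had the same order, with STAB1 at 14120 and 13420 against 11779 and 12864 in S16 to S19 and at 17246 and 13353 against 18347 in S21 to S23. MRC1, the mannose receptor, stood at 18863 to 19698 in S16 to S19 and at 20715, 16336 and 20656 in S21 to S23. CD31+ libraries were the highest of their run in both runs for 3 of 14 sinusoidal genes with a mean of at least 500, namely OIT3, GPR182 and DNASE1L3, where 3.47% of all 7111 such genes had that order. None of the 21 general endothelial genes had that order, which in a list this short does not set them apart from that share.

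Receptors and ligands of the VEGF, angiopoietin and BMP pathways gave 0 calls of 23 tested, with a median of -0.03 (log2) and 4 genes above 0. Without S22 the median was 0.03 and 19 of the 23 were above 0. With all libraries and the run as a block, the median was -0.008 and 10 of the 23 were above 0. TEK, the angiopoietin receptor, stood at 11537 to 12036 in S16 to S19 and at 12563, 10475 and 12378 in S21 to S23. ENG, a BMP co-receptor, stood at 16169, 16043, 14624 and 15837, then at 13425, 10389 and 14028. GDF2, which encodes the BMP9 made in the liver, stood at 939 to 1067 in S16 to S19 and at 814 and 824 in S21 and S23. Its 417 in S22 rests on about 8 reads. Lymphatic genes gave 0 calls of 3 tested, with PROX1 at 1049 to 1301 in S16 to S19 and at 1499 to 1568 in S21 to S23.

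No general leukocyte gene tested was highest in the CD45+ library of S16 to S19, while 5 of 9 were highest in the CD45+ library of S21 to S23, beside 30.1% of all genes. Against CD45+ alone, 0 genes of 14324 were called (0.0%), with 1 at an unadjusted p under 0.05. Without S22 there were 0 calls and 25 such genes. Of 9 tested general leukocyte genes, 7 had a value above 0 in the endothelial minus other difference, with a median of 0.08 (log2) and of 0.02 without S22. With all libraries and the run as a block, 6 of the 9 were above 0, with a median of 0.008. ITGB2, an integrin chain of leukocytes, was lowest in S18 and highest in S23 of their runs, at 1313, 1317, 1171 and 1380 in S16 to S19 and at 1761, 1396 and 1794 in S21 to S23. LCP1, an actin-bundling protein of leukocytes, stood at 2867, 2836, 2832 and 2897 in S16 to S19 and at 4502, 5062 and 4421 in S21 to S23. CD45+ libraries were the highest of their run in both runs for 0 of 6 general leukocyte genes and 0 of 11 macrophage genes with a mean of at least 500, where 3.0% of all such genes had that order. Counts of 0 in lists this short do not set them apart from that share. CSF1R, the receptor for macrophage colony-stimulating factor, stood at 4190 in S16, 4042 in S17, 3735 in S18, 4205 in S19, 8523 in S21, 6888 in S22 and 8448 in S23. C1QC, a complement subunit made by macrophages, stood at 11629, 10976, 10689 and 11984, then at 18229, 14766 and 17820. Several defining genes of T, B and granulocyte lineages were low in the CD45+ libraries also. CD3E stood at 8.66 in S18 and 24.9 in S23, MS4A1 at 4.32 and 9.46, and CSF3R at 7.20 and 15.3. Other genes of these lists were higher in S18 and S23, with CD4, which macrophages can also carry, at 660 and 1400, NKG7 at 154 and 190, CD79A at 166 and 201 and S100A9 at 155 and 144.

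The CD45-/EpCAM+ library S19 stood slightly above the other libraries of its run for the summed level of the biliary list. Of 11 biliary genes tested, 0 were called in the endothelial comparison, and the list held 0.157% of the total in S19 against 0.139% to 0.153% in the other libraries of its run. S19 was the highest of its run for 5 of the 11, beside 23% of all genes tested, and CD31+ S16 for the other 6, beside 25.3%. KRT8, an epithelial keratin, stood at 5726, 4947, 5751 and 6170 in S16 to S19 and at 7116, 6148 and 6942 in S21 to S23. CDH1, the epithelial cadherin, stood at 14090, 13259, 15366 and 15526, then at 17101, 16623 and 16462. Both were highest in S19 within its run, and both were higher still in 2 or more libraries of S21 to S23.

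**Figure D2:**
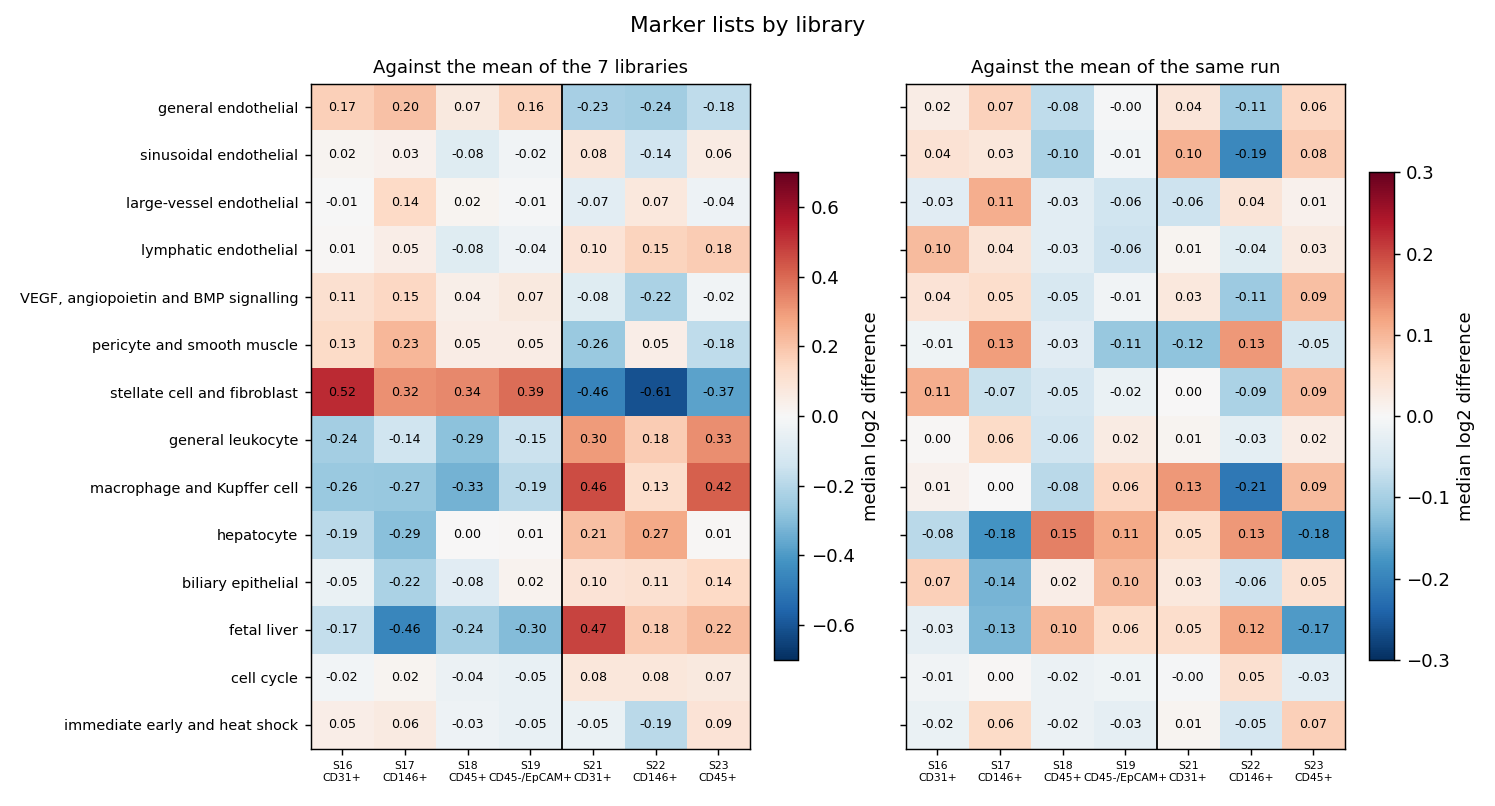
Median log2 difference of each marker list by library, against the mean of the 7 libraries (left) and against the mean of the same run (right), for the lists with at least 3 genes at a mean of 500. The left panel divides at the line between the runs, with the stellate and fibroblast list at 0.32 to 0.52 in S16 to S19 and -0.61 to -0.37 in S21 to S23. In the right panel the hepatocyte list is -0.18 in S17 and 0.13 in S22.

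Hepatocyte genes varied in opposite directions by run. ALB, TF and the fibrinogen genes were lower in the endothelial sorts than in the others within S16 to S19 and higher within S21 to S23. TF, the iron carrier transferrin, stood at 312840 in S16, 292410 in S17, 365900 in S18, 359660 in S19, 404990 in S21, 443350 in S22 and 347920 in S23. The list's median endothelial difference was -0.27 (log2) in the former run and 0.28 in the latter, and 0.01 over the 7 libraries. The difference of these differences was tested by an interaction term in limma with 3 residual degrees of freedom, and 0 of 14324 genes were called (0.0%), with 708 at an unadjusted p under 0.05. Without S22, 14 genes were called. With 1 other sort in S21 to S23, this order rests on the CD45+ library S23.

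The CD31+ and CD146+ sorts were then compared with each other. No gene of 14324 was called (0.0%), and 39 had an unadjusted p under 0.05. Without S22 there were 0 calls and 48 such genes. Without S17, 2606 genes were called, where S22 stands alone for CD146+ and is assumed to vary like the deeper libraries. With S22 left out and the run as a block, S17 stood alone for CD146+ and few residual degrees of freedom remained. The calls of that fit are therefore not given.

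By the rule for named genes, the genes with no overlap that were higher in CD146+ were GULP1, KCNMB1, CDH3, RPS6KA5 and TPM2. KCNMB1, the channel subunit of smooth muscle, stood at 686 in S17 and 626 in S22, against 542 and 484 in the CD31+ libraries. TPM2, a tropomyosin of contractile filaments, stood at 6376 and 5641 against 5217 and 4799. Those higher in CD31+ were TSR3, ZBTB43, HAPLN4, GNMT and SEMA4G. GNMT, a methyltransferase of hepatocytes, stood at 918 and 966 in CD31+ and at 750 and 887 in CD146+. The adjusted p was 0.921 for each of the 10, so these are values and not changes.

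Contractile and pericyte genes often stood highest in the CD146+ libraries. Of 11 pericyte and smooth muscle genes with a mean of at least 500, 7 were highest in the CD146+ library of each run, where 11.1% of all 7111 genes had that order. ACTA2, smooth muscle actin, stood at 21541 in CD31+ S16, 26290 in CD146+ S17, 22449 in CD45+ S18 and 20870 in CD45-/EpCAM+ S19, and at 20729 in CD31+ S21, 25723 in CD146+ S22 and 20946 in CD45+ S23. Both CD146+ values lay above every other library, and the S22 counting interval, 23503 to 28097, did not reach the other libraries. ACTA2 was 1.22 and 1.23 times the mean of the other sorts in the runs.

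TAGLN, an actin-binding protein of smooth muscle, stood at 12946, 15467, 13332 and 12502 in S16 to S19 and at 11669, 15010 and 11646 in S21 to S23. It was 1.20 and 1.29 times the others, with a counting interval of 13326 to 16849 in S22. CNN1, the smooth muscle calponin, stood at 3405, 4049, 3523 and 3214, then at 2333, 3206 and 2372, or 1.20 and 1.36 times. Its S22 interval was 2455 to 4115. RGS5, a pericyte regulator of G-protein signalling, stood at 16656, 18646, 17421 and 16208, then at 11641, 12211 and 12058. MCAM itself is a member of this list, and CSPG4 and KCNJ8 were the other 2 of the 7. The S22 counting intervals of RGS5 (10696 to 13879), CSPG4 (2027 to 3558) and KCNJ8 (287 to 1027) held both S21 and S23. Their order in that run thus lies within counting error, as does that of MCAM against CD45+ S23. DES and NOTCH3 were not highest in both runs, and ABCC9 and PDGFRB were lower in S22 than in at least 1 other library of its run.

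These differences did not pass a test over all genes. A comparison of CD146+ with the other 5 libraries and the run as a block, added after the values were seen, called 0 of 14324 genes, with 2244 at an unadjusted p under 0.05. The limma estimates were 0.29 ± 0.05 (log2, SE) for ACTA2, 0.31 ± 0.05 for TAGLN and 0.35 ± 0.06 for CNN1, each with an adjusted p of 0.280. Without S22 they were 0.28, 0.26 and 0.26, with an adjusted p of 0.459 each. These estimates describe the order by which the genes were picked out.

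Large-vessel endothelial genes had a similar order, with 6 of 10 highest in the CD146+ library of each run. For each of those 6, the S22 counting interval held the value of another library of its run, such as 4245 to 6346 for GJA5. Their order in S21 to S23 is thus less firm than that of ACTA2. GJA5, an arterial connexin, stood at 4706 in S16, 5369 in S17, 4974 in S18, 4714 in S19, 5052 in S21, 5217 in S22 and 5183 in S23. HEY1, a target of Notch signalling in arteries, stood at 722, 796, 692 and 681, then at 698, 835 and 704, with 16 reads behind the value in S22. EFNB2, the arterial ephrin, was highest in S17, at 8028, and lowest of its run in S22, at 5734. Within S16 to S19 alone, S17 was the highest library for 17 of 21 general endothelial, 9 of 10 large-vessel and 9 of 11 pericyte and smooth muscle genes, beside 26.7% of all genes with a mean of at least 500. Of the 11 tested immediate early and heat shock genes, which respond to stress, S17 was also highest for 9, and their part in these orders was not tested. It was the lowest for all 12 hepatocyte and 9 of 10 biliary genes, beside 27.7% of all. In S22 the hepatocyte list was instead above its run. Most macrophage and sinusoidal genes, 9 of 11 and 13 of 16, were lower in S22 than in both S21 and S23, beside 52.5% of all genes tested, with STAB2 at 0.677 times their mean and CSF1R at 0.812 times. MARCO, a scavenger receptor of Kupffer cells, was higher in S22, at 2609 against 2326 and 2264, as were WNT2 at 1694 against 1431 and 1425, WNT9B at 731 against 340 and 365, and MEIS2. CD14 lay between.

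**Figure D3:**
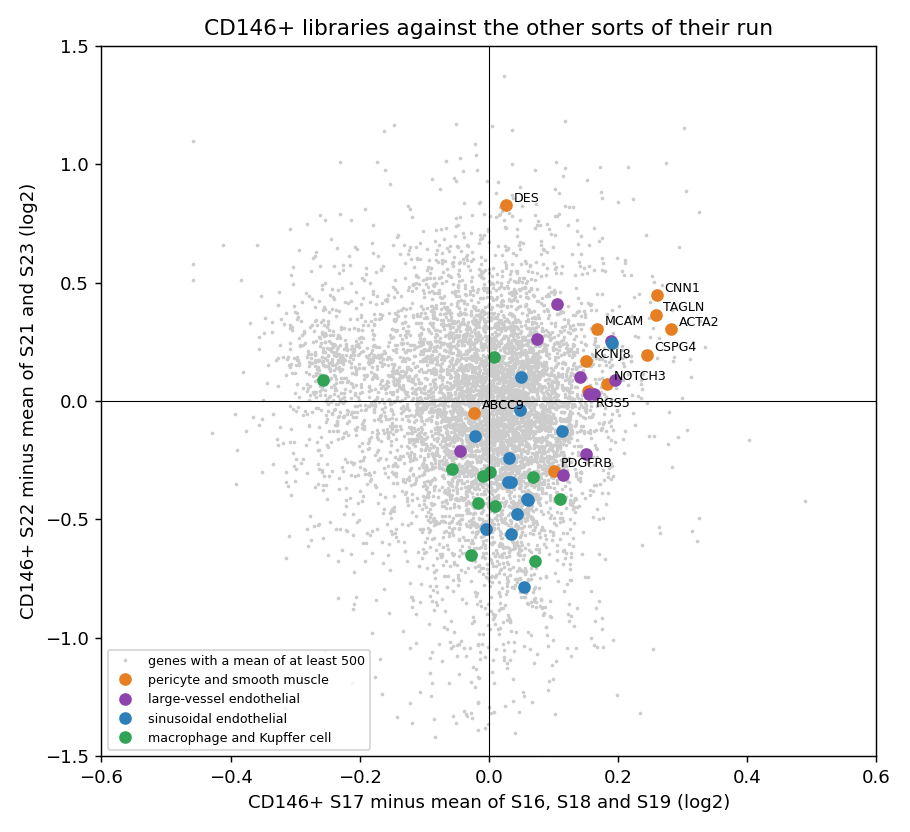
Log2 difference of each CD146+ library from the mean of the other sorts of its run, S17 on the horizontal axis and S22 on the vertical, for genes with a mean of at least 500 normalized counts (points beyond the axes are not drawn). ACTA2, TAGLN, CNN1, MCAM and CSPG4 lie in the upper right, and most macrophage and sinusoidal genes lie below 0 on the vertical axis. Some of these, such as VSIG4 and C1QC, lie below 0 on both axes.

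The run of title numbers separated the same 7 libraries far more than the antigen did. With the endothelial or other side as a covariate, limma called 110 genes higher in S21 to S23 (0.768%) and 168 lower (1.17%) of 14324. Without S22 it called 217 and 360. Libraries of all labels moved together, so that the CD31+ library S16 was closer to the CD45+ library S18 than to the CD31+ library S21. What the runs differ in beside their numbers cannot be told apart here, since no label gives the animal, preparation or sequencing date of a liver library.

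**Figure D4:**
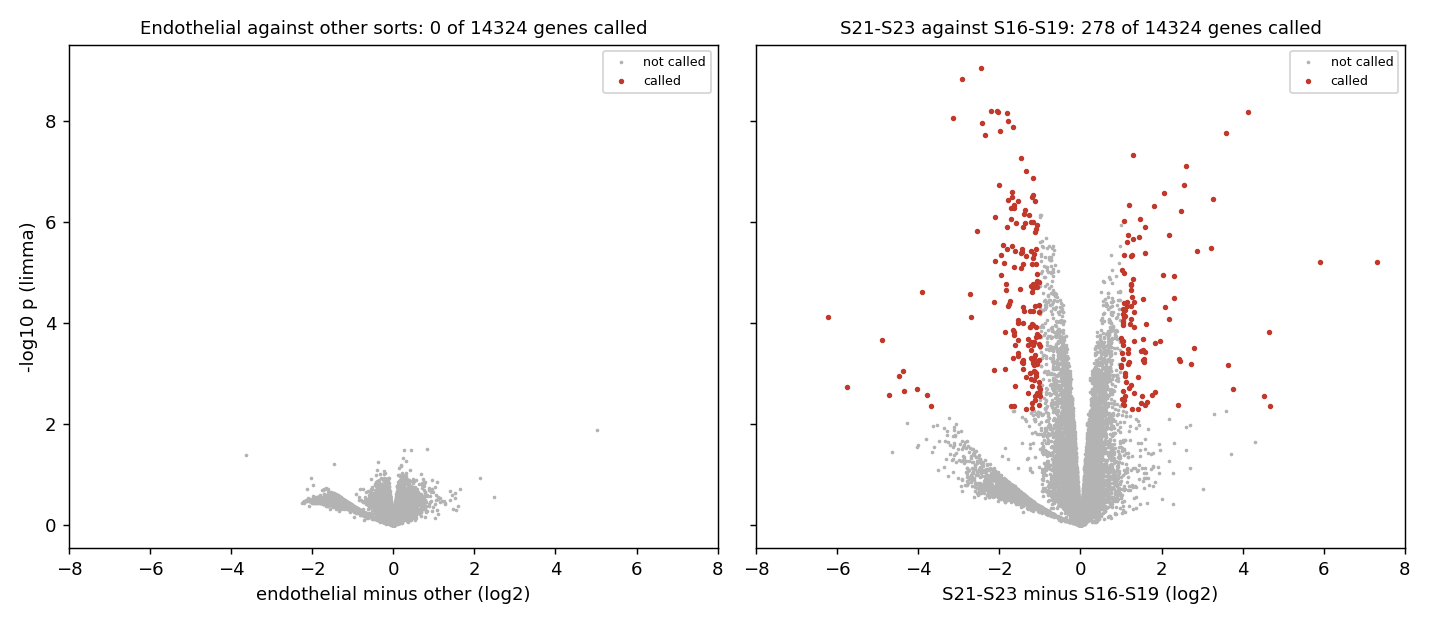
Log2 difference (horizontal) against -log10 of the limma p (vertical) for each of 14324 genes, comparing endothelial with other sorts (left) and S21 to S23 with S16 to S19 (right). Called genes are in red, 0 on the left and 278 on the right.

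Of the marker lists, the stellate and fibroblast genes were the most often lower in S21 to S23, with 4 of 11 called. COL3A1, a fibrillar collagen, stood at 73757 in S16, 73597 in S17, 69250 in S18, 68834 in S19, 32692 in S21, 33593 in S22 and 32931 in S23. The limma difference was -1.12 ± 0.06 (log2, SE, adjusted p = 0.000181). COL1A1, the chain of type I collagen, fell by 1.09 on the log2 scale. DCN, the proteoglycan decorin, fell by 1.41 and LUM, lumican, by 1.65, with adjusted p values from limma of 0.000617 for COL1A1, 0.000255 for DCN and 0.0056 for LUM, though S22 held only about 1 read of LUM. LYVE1, a hyaluronan receptor of sinusoidal and lymphatic endothelium, was called lower with all libraries, at 4769 to 5099 against 2474, 1461 and 2570, with a difference of -1.21. It was not called without S22.

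General endothelial genes gave 0 calls at 2-fold, with 14 of 21 lower in S21 to S23 without overlap (19.3% of all genes tested) and a median of -0.34, against -0.04 over all genes. VWF, a clotting protein stored in endothelium, stood at 6062 to 6954 in S16 to S19 and at 3831, 3973 and 4163 in S21 to S23. Its limma difference was -0.72 (adjusted p = 0.00167), under the fold threshold. In contrast, macrophage genes gave 9 of 11 higher in S21 to S23 without overlap (16.4% of all genes tested), with a median of 0.60 and 0 calls. Without S22 CSF1R was called, and with all libraries limma gave a difference of 0.97 with an adjusted p of 0.00201. VAV1, a signalling protein of blood cells, was called higher, at 377 to 421 against 851, 855 and 844, a difference of 1.09 with an adjusted p from limma of 0.0007. CFTR, the chloride channel of bile duct cells, was also called higher, at 922 to 1096 against 2143, 2134 and 2423. Hepatocyte genes had a median of 0.27 and 0 calls.

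Outside the lists, the named genes with the largest rise in S21 to S23 were led by SCGB1A1 and CRP. SCGB1A1, a secretoglobin best known from airway epithelium, stood at 10.2 in S16, 1.33 in S17, 4.34 in S18, 4.71 in S19, 964 in S21, 624 in S22 and 961 in S23. CRP, the acute-phase C-reactive protein, stood at 359, 307, 436 and 399, then at 3658, 4160 and 2986. The limma difference for CRP was 3.27 ± 0.16 (log2, SE, adjusted p = 0.000181). APCS, a related pentraxin, stood at 82.1 to 100 against 663, 939 and 552, and APOA4, an apolipoprotein, at 143 to 167 against 742, 1180 and 588. MT1A, a metal-binding metallothionein, stood at 2201 to 2721 against 11634, 10336 and 9962. The chemokine CCL3L1 and the genes DLGAP1, CDHR5, FCRL3 and SLC13A5 completed the 10, with differences between 1.83 and 2.19.

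The named genes with the largest fall included ISG15, RSAD2 and MX1. ISG15, a ubiquitin-like modifier that interferon induces, stood at 3263 in S16, 3290 in S17, 3175 in S18, 3287 in S19, 376 in S21, 313 in S22 and 401 in S23. Its 4 values in S16 to S19 averaged 3254 ± 54.1 (SD, n = 4), against 363 ± 45.2 (SD, n = 3). RSAD2, the antiviral enzyme viperin, stood at 5226 to 5649 against 459, 163 and 560. MX1, an antiviral GTPase, stood at 8118 to 8522 against 1456, 1721 and 1483, and IFI6 at 12868 to 13317 against 2309, 2503 and 2328. USP18, DDX60 and ISG12(A) were also lower in S21 to S23, with differences of -2.71, -2.56 and -2.92. Within S16 to S19 the endothelial and the other sorts overlapped for each of these genes.

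The other 3 of the 10 were CYP2A19, a liver cytochrome P450, GRM7, a glutamate receptor, and KIT, the receptor for stem cell factor. CYP2A19 stood at 593, 482, 654 and 705 in S16 to S19 and at 32.1, 0 and 26.7 in S21 to S23. GRM7 stood at 188, 205, 158 and 175, then at 17.4, 0 and 13.2. The 0 in S22 allows up to 156.5 normalized counts, and without S22 the differences were -4.32 for CYP2A19 and -3.49 for GRM7. KIT stood at 556 to 583 against 109, 52.0 and 105. All 20 genes were also called without S22.

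ISG15, RSAD2 and MX1 stood high in a pBTSC library as well. ISG15 was at 3568 in the pBTSC library S15 and at 381 in S20, against 143 to 296 in the other 3 pBTSC libraries. RSAD2 was at 6827 in S15 and 622 in S20, and MX1 at 8582 and 1125. CYP2A19 and KIT, also among the 10 genes with the largest fall, were lower in S15 than in S20, at 0 against 53.1 and at 860 against 1030. The share of all genes that stood higher in S15 than in S20 was not computed. S15 is shallow, at about 1570000 reads, and its 0 lies under its floor of 3 reads, 37.7 normalized counts. The study's sample list gives S15 and S20 as different wild-type piglets of the same age. Their numbers stand directly before the runs S16 to S19 and S21 to S23. No source ties the liver libraries to those piglets, and a part of the piglet in the run difference was not tested. In the 8 other liver libraries ISG15 ran from 147 to 351.

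**Figure D5:**
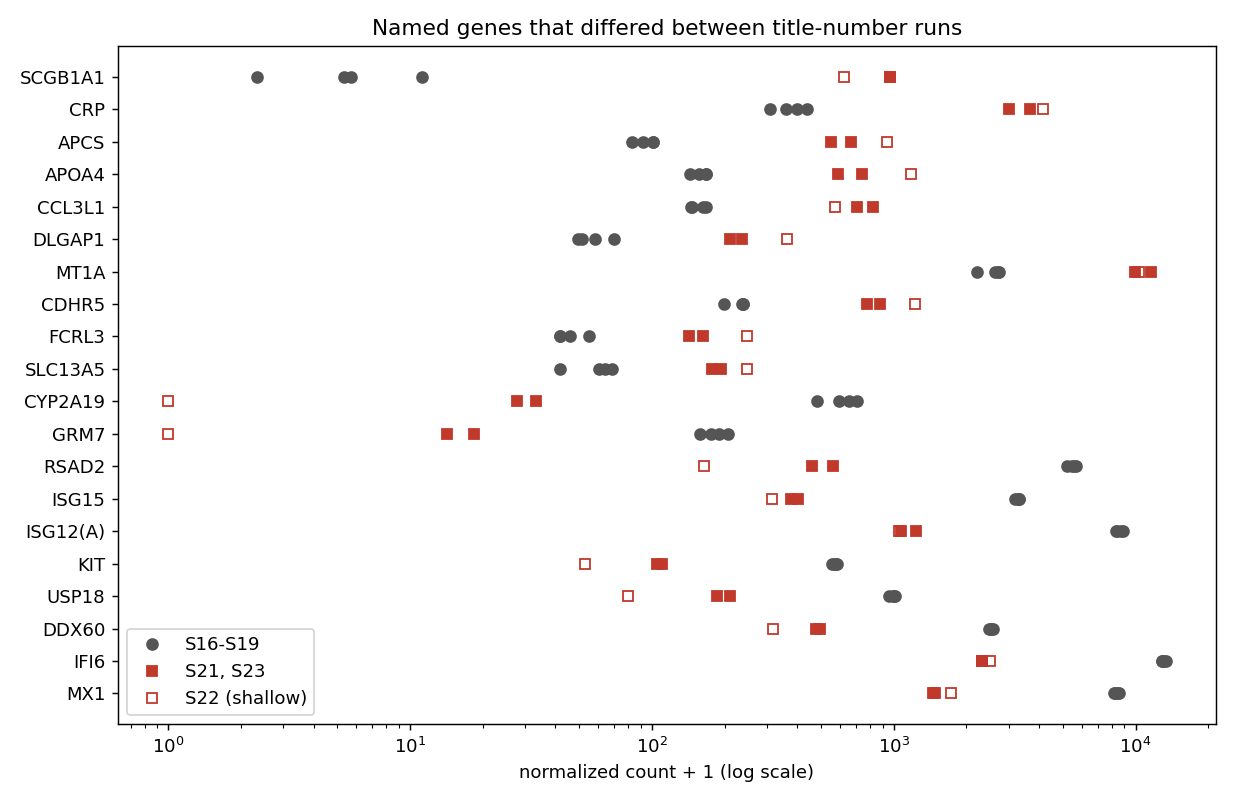
Normalized count plus 1 on a log axis for the 20 named genes of the run comparison, with S16 to S19 as grey circles, S21 and S23 as red squares and S22 as an open red square. The circles and squares do not overlap for any gene, with ISG15 near 3254 against 363.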

How the data were processed

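RNA was purified with the Qiagen RNeasy kit and libraries were made with the Illumina TruSeq Stranded mRNA kit, per the labels. The authors deposited a single table of normalized counts for 20 libraries, a signal that is reads per gene divided by a factor for each library. The submitters' processing notes name STAR, Salmon and DESeq2, with no role or version, and the genome build is not given in the sources used here. No sequence or coordinate is reported.

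Of 25764 rows, 7782 had no gene name and were tested under no name. Since low values came out within 0.05 of a whole read for only 56.1% to 79.5% of values in the 7 libraries, no count test was run. Values were tested as log2(value + 1) with limma 3.58.1 (R 4.3.3, eBayes with trend) for 14324 genes, each with 2 or more of the 7 libraries at 10 normalized counts or above. A fold change is therefore on the log2(value + 1) scale and understates low genes. Genes were called at a Benjamini-Hochberg adjusted p under 0.05 and an absolute log2 difference above 1. Both thresholds follow the study, which used limma. Antigen genes were tested with an exact permutation test (scipy 1.17.1). Intervals of S22 are 95% Poisson intervals and, like floors of 3 reads, cover counting error only. Depth was estimated from the value of 1 read.

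Groups, gene lists and tests were chosen with earlier results of these data known. Of 232 listed genes, 194 had a row by that name and 185 were tested. The other 38, the 13 mitochondrial names among them, were not analysed here. Named genes were the antigens, the 2 to 4 most abundant members of a list with those called, and the 10 each way (5 for CD31+ against CD146+) with the largest change among called, named, non-overlapping genes with a mean of at least 100. Where none was called they were taken by p without S22. Where another gene is named, it was picked after its values were seen, as with the members of a list that were highest in both runs. Alternatives were other pseudocounts (0.1 and 10), filters, scalings, weights, trend and threshold, each library left out, a run block, and a fit of all 20 libraries.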

Additional observations from a re-analysis of the deposited data

Results flagged for a closer look

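Among the 4 endothelial libraries, 12 of the 126 named genes had a highest or lowest library far from the other 3 by Dixon's ratio of the gap to the range, and chance flags about 1 in 20 groups. In 11 of the 12 the distant library was the shallow CD146+ library S22, whose values step by 52.2 normalized counts. Their ratios were 0.945 for ERI3, 0.887 for INIP, 0.88 for STARD3NL, 0.864 for SYBU, 0.844 for KIAA1524, 0.879 for TUBGCP4, 0.842 for FLT4, 0.837 for NKG7, 0.863 for CD79B, 0.907 for ALAS2 and 0.838 for PPBP. In the remaining gene, S100A8, the CD31+ library S21 was lowest, with a ratio of 0.935. It stood at 61.3 in S21 and 60.8 in CD45+ S23 of the same run, and its 103.9 in S22 rests on about 2 reads.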

How the results depend on the processing

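No paired analysis was possible because the labels carry no replicate numbers, so no pairing by replicate was tried and the run of title numbers was the only block fitted. With the run as a block, the comparison of endothelial with other sorts again had 0 calls, as did both other label comparisons. Endothelial against other sorts had 0 calls under every alternative but the fit of all 20 libraries, which gave 149 calls, all lower. That fit took its spread only from the other 13 libraries, since each of the 7 stood alone in its label and run. S22, with 1725 tested genes at 0, entered it at full weight, so these calls are not read as differences between the sorts. Leaving out each of the 7 libraries gave 0 calls throughout. For CD31+ against CD146+, leaving out a library gave 0 to 2606 calls, with the 2606 without S17 and 0 otherwise. For endothelial sorts against CD45+ the range was 0 to 1143, again with the higher count without S17. With S22 left out and the run as a block, an alternative chosen after seeing the data, these gave 9 and 8 calls. The difference by run went from 0 to 14 calls without S22. The run comparison, with 278 calls, ranged from 173 (without S17) to 577 (without S22), with 635 under array weights and 1489 with no fold threshold. Array weights left 0 calls between endothelial and other sorts, with 2005 genes at an unadjusted p under 0.05. The PECAM1 difference turned from -0.03 to 0.04 (0.0352 and 0.0353) within the runs, and ran from -0.17 to 0.04 over the libraries left out (0.0449 without S18, 0.0256 without S19, 0.0418 without S21, 0.0287 without S22). Those ranges were -0.02 to 0.17 for MCAM (-0.0007 without S17, -0.0237 without S23), -0.0045 (without S22) to 0.29 for PTPRC and -0.16 to -0.10 for EPCAM. The hepatocyte median moved to -0.27 in S16 to S19 and 0.28 in S21 to S23, and the sinusoidal median to -0.11 in S21 to S23. With each library left out, list medians ran from -0.14 to 0.04 for general endothelial, -0.06 to 0.06 for sinusoidal, -0.02 to 0.17 for pericyte, -0.02 to 0.28 for leukocyte, -0.10 to 0.28 for macrophage and -0.10 to 0.09 for hepatocyte genes. The cause of these shifts was not tested. Pseudocount, filter, trend and scaling moved no count of calls by more than 1.5 times. The depth of S22 limits every value under 156.5 normalized counts in it.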
